A study of Talpa occidentalis with 6 samples.

Results

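The interval described here is a 1.7 Mb stretch of mouse chromosome 11, from 111.1 to 112.8 Mb, between Kcnj2 and the far side of Sox9. Sox9 encodes the transcription factor that drives Sertoli cell differentiation, and Kcnj2 encodes an inward-rectifier potassium channel. The members are all segments of the mouse ovary and mouse testis chromatin segmentations that overlap the interval. There were 340 of them, 174 in the ovary and 166 in the testis, out of 829187 in the whole mouse genome. The assay was ATAC-seq, a transposase-based reading of open DNA, on whole mouse gonads broken up into single cells at embryonic day 13.5 (E13.5). The study set them beside mole gonads at postnatal day 7, which are not analysed here. The 6 labelled samples are all of wild-type moles, so the gonad of each mouse file was taken from its track line, and strain, genotype and pooling of the mouse gonads are not given in the sources used here. Each mouse gonad is 1 segmentation without replicates, so every difference between the gonads lacks a replicate check and none was tested. The sequencing depth is unknown.

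In the XY gonad, SRY raises Sox9 in the supporting cell precursors, SOX9 then sustains its own expression, and Sertoli cells form. In the XX gonad Sox9 stays low and granulosa cells form from the same precursors. The enhancers through which this happens lie in the large gene-poor region upstream of Sox9. Among them are TES, the testis enhancer close to the gene, and Enh13, a distant enhancer whose loss in XY mice leads to ovaries. The same region holds enhancers for cartilage and other tissues. A whole gonad holds many cell types, so a change in the number of cells of a type cannot be told apart from a change in accessibility within those cells.

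The segmentations give each 200 bp bin 1 of 5 states, numbered from 1, drawn in red, to 5, drawn in white. Of the boundaries between segments, 97.8% in the ovary and 98.2% in the testis joined states with neighbouring numbers, so the states form an ordered series. State 1 was read as the most accessible, state 2 as the next step, and states 4 and 5 as the lowest. A bin in state 1 or 2 is called raised. All 7 chromosome ends compared matched the mouse build mm9, and 0 matched mm10; chromosome 11 ended at 121843800 in both files. All positions are therefore on mm9. Sox9 was placed on this build from textbook knowledge, to within a 200 bp bin, because no mouse annotation was used here. The interval reaches 1.54 Mb upstream of the Sox9 start and 156 kb beyond it. As a check of the build and of this way of placing, the Kcnj2 start was placed likewise. It lay in state 1 in both gonads, at 110927201 to 110927800 in the ovary and at 110927001 to 110927800 in the testis. The position of Sox9 itself is not checked by this.

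The gonad labels could be checked on chromosome X. States 4 and 5 covered 89% of chromosome X in the testis and 24.1% in the ovary, against 11.6% and 12% of the 19 autosomes. An XY animal carries a single X chromosome and an XX animal a pair of them. On chromosome X, 63% of bins were in state 3 in the ovary and state 4 in the testis, against 1.63% of autosomal bins. How far steps between states 3 and 4 in the interval depend on read number, apart from accessibility, was not tested. Since the gonads differed this much on chromosome X, the background for the interval was taken from the autosomes.

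Most of the interval was in state 3 in both gonads, and the testis held more of states 1 and 2 than the ovary. State 3 covered 91.7% of the interval in the ovary and 90.4% in the testis, and 85.5% of the bins were in state 3 in both. State 1 covered 0 of 8500 bins in the ovary, where the 95% Wilson interval reaches up to 0.0452%, and 6 of 8500 bins in the testis, or 0.0706% (0.0324% to 0.154%). States 1 and 2 together covered 40600 bp in the ovary, or 2.39% (2.08% to 2.73%), and 101200 bp in the testis, or 5.95% (5.47% to 6.48%). These intervals cover counting error only and treat neighbouring bins as independent. States 4 and 5 ran the other way, with 504 bins in the ovary, or 5.93%, and 312 in the testis, or 3.67%.

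**Figure D1:**
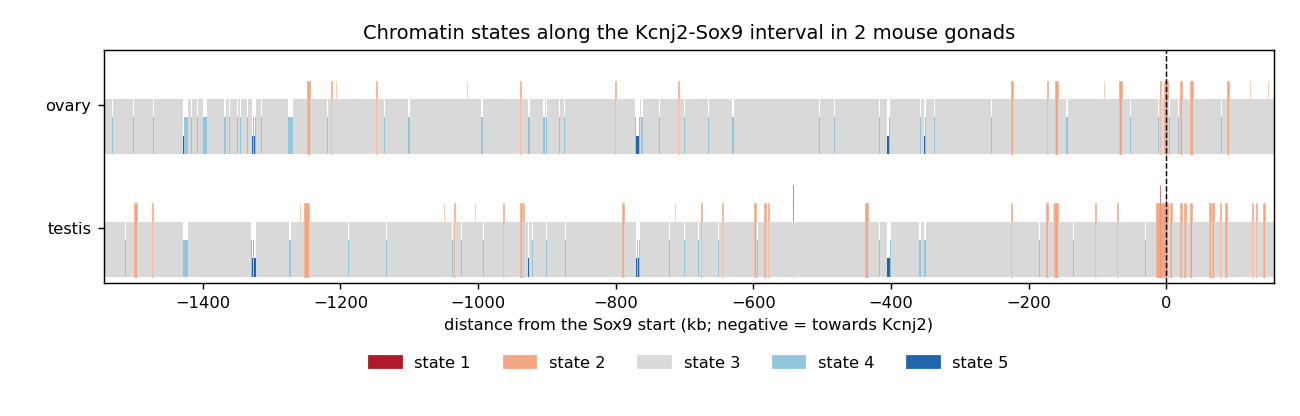
Chromatin states along the interval in the ovary (upper row) and the testis (lower row), plotted against the distance from the Sox9 start in kb. A taller bar is a lower state number, the dashed line is the Sox9 start, and the 3 state 1 segments are all in the testis.

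Against the rest of the genome the interval was poor in states 1 and 2 in both gonads, and the ratio between the gonads was high. States 1 and 2 covered 14.9% of autosomal bins in the ovary and 17.4% in the testis, a ratio of 1.17, and 20% and 25.2% of chromosome 11, a ratio of 1.26. In the interval the testis had 2.49 times as many bins in states 1 and 2 as the ovary. The autosomes were also divided into stretches of 1.7 Mb, leaving out those with over 50% of state 5, and 1 of 1384 stretches with a defined ratio exceeded 2.49. The lower quartile of these ratios was 1.02, the median 1.16 and the upper quartile 1.33. The stretches were counted from the start of each chromosome, so 2 of them hold parts of the interval itself. A ratio of small shares can be high on few bins, and in percentage points the interval did not stand apart: the testis exceeded the ovary by 3.56 points, while 450 of 1385 stretches had a larger excess and the upper quartile was 4.49 points.

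**Figure D2:**
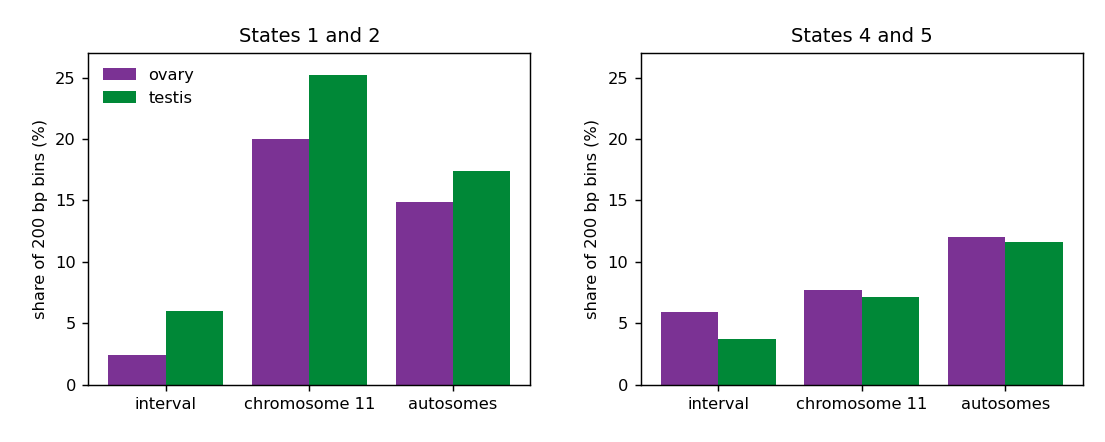
Share of 200 bp bins in states 1 and 2 (left) and in states 4 and 5 (right) for the ovary and the testis, in the interval, on chromosome 11 and on the autosomes. In the interval the testis had 5.95% of bins in states 1 and 2 against 2.39% in the ovary, and 3.67% in states 4 and 5 against 5.93%.

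Bin by bin, 7526 of 8500 bins, or 88.5%, carried the same state in both gonads, against 81% on the autosomes. The testis was more accessible by at least 1 state in 738 bins, or 8.68%, where the autosomal background was 11.1%. The ovary was more accessible in 236 bins, or 2.78%, against a background of 7.86%. Fewer bins than the background therefore differed in either direction, and the deficit was larger for the ovary: the testis led in 3.13 times as many bins as the ovary here and in 1.41 times as many on the autosomes. Bins in state 1 or 2 in the testis only numbered 390, or 4.59% (background 8.31%), and in the ovary only 87, or 1.02% (background 5.77%). Both gonads shared 116 bins in state 1 or 2, which was 57.1% of those of the ovary and 22.9% of those of the testis. On the autosomes these shares were 61.3% and 52.3%.

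Differences of 2 or more states were rare, and the longest run of them lay in the TES window. The testis was more accessible by at least 2 states in 11 bins, or 0.129% (background 0.0416%), and the ovary in 1 bin, or 0.0118% (background 0.0308%). They formed 5 runs. The longest, of 6 bins, lay at chr11:112631001-112632200, from 12.5 to 11.3 kb upstream of the Sox9 start, with state 4 in the ovary and state 2 in the testis. The next, of 3 bins, lay at chr11:112100601-112101200, from 542.9 to 542.3 kb upstream, with state 3 in the ovary and state 1 in the testis. The other runs were 1 bin each. At 1499.7 kb upstream the ovary was in state 4 and the testis in state 2, at 771.1 kb upstream the ovary was in state 5 and the testis in state 3, and at 1328.5 kb upstream the ovary was in state 3 and the testis in state 5.

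The Sox9 start was raised in both gonads, and the raised chromatin around it reached much further upstream in the testis. The 11 bins within 1 kb of the start were in state 2 in the ovary, while the testis had 1 bin in state 1 and 10 in state 2. That state 1 bin lay at 112643401 to 112643600, and held the placed gene start. In the testis an unbroken run of states 1 and 2 spanned 17200 bp, from 112628601 to 112645800. It was the longest such run of the interval, and it began 14.9 kb upstream of the start and ended 2.3 kb after it. In the ovary the run over the start spanned 6600 bp, from 112639601 to 112646200, or from 3.9 kb upstream to 2.7 kb after the start. Both therefore ended within the first 3 kb after the start, and the difference in length lay upstream. The Kcnj2 start differed less: its run of states 1 and 2 spanned 2.2 kb in the ovary and 3.2 kb in the testis.

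Within this testis run of 17200 bp the ovary passed through 3 different states. Going towards the gene it was in state 3 from 14.9 to 12.5 kb upstream, in state 4 from 12.5 to 11.3 kb, and again in state 3 from 11.3 to 9.5 kb. It then rose to state 2 from 9.5 to 8.1 kb, returned to state 3 until 3.9 kb, and was in state 2 from there across the start. The testis left state 2 for state 1 at 2 places, from 9.1 to 8.7 kb upstream and at the start itself. The first of these state 1 segments, at 112634401 to 112634800, lay inside the 1.4 kb where the ovary was in state 2.

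**Figure D3:**
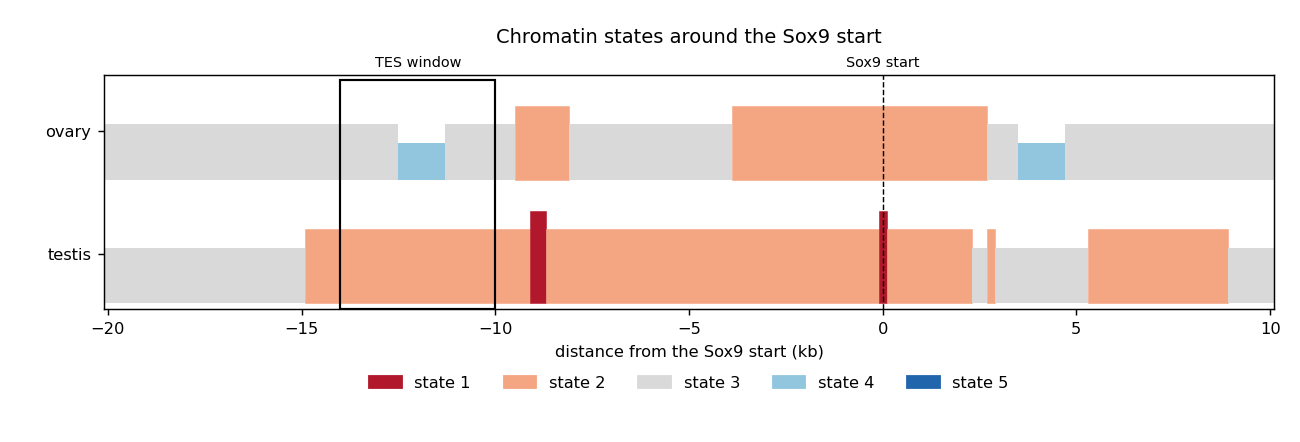
Chromatin states from 20 kb upstream to 10 kb downstream of the Sox9 start, in the ovary (upper row) and the testis (lower row), against the distance in kb. The box marks the TES window from 14 to 10 kb upstream, where all 21 bins were in state 2 in the testis and none was in state 1 or 2 in the ovary.

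TES was taken as the window from 14 to 10 kb upstream of the Sox9 start. All 21 of its bins were in state 2 in the testis. In the ovary 15 were in state 3 and 6 in state 4, and none was in state 1 or 2. The bins in state 4 were among only 12 bins of the ovary in states 4 or 5 within 100 kb upstream of the start. The other 6 formed 1 segment of 1200 bp at 112590601 to 112591800. After the start the ovary had 3 such segments, of 1200 bp at 112647001 to 112648200, of 400 bp at 112661001 to 112661400 and of 1200 bp at 112723001 to 112724200. The testis was in states 4 or 5 in none of these 4.

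Enh13 was sought in a wide window, chr11:112063401-112093600, since it was placed by its approximate distance from Sox9 and no mouse sequence was compared. Of the 151 bins in this window, the testis had 10 in state 2 and 141 in state 3, and none in state 1. These 10 bins were 6.62% of the window, near the 5.95% of the whole interval and below the 17.4% of the autosomes. The ovary had 145 in state 3 and 6 in state 4. The 10 bins formed 1 run of 2.0 kb at 112064401 to 112066400, from 579.1 to 577.1 kb upstream. The testis segment in state 1 at 542.9 kb upstream lay 7.0 kb outside this window, and whether it belongs to Enh13 was not tested. It was 600 bp long, the longest state 1 segment of the interval, inside a 1.2 kb run of states 1 and 2, and the ovary was in state 3 throughout that run. On the autosomes 0.211% of bins were in state 1 in the testis and not in the ovary, above the 0.0706% of the interval. The 3 testis segments in state 1 are the only ones in the interval, and the ovary, which had none, was in state 3 over the distal one and in state 2 over the other 2.

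Merged over both gonads, states 1 and 2 formed 48 regions along the interval. Regions raised in the testis only numbered 29, with a median length of 1.8 kb. Regions raised in the ovary only numbered 10, with a median of 600 bp, and 9 regions were raised in both, with a median of 4.2 kb. Of the 39 testis runs, 23.1% overlapped a run of the ovary, and of the 20 ovary runs 50% overlapped one of the testis. On the autosomes 55.6% and 58.2% did. The split into 29, 10 and 9 merged regions has no autosomal split beside it here.

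The testis regions were scattered unevenly along the desert, with none from 1472.9 to 1259.3 kb upstream and a group near 600 kb upstream. The far ones began with 3.6 kb at chr11:111143801-111147400, 1499.7 kb upstream. Between 964.3 and 644.1 kb upstream lay 6 testis regions, among them 2.4 kb at chr11:111679201-111681600 and 2.4 kb at chr11:111853001-111855400. The group near 600 kb consisted of 2.8 kb at chr11:112045001-112047800, 2.8 kb at chr11:112058801-112061600 and the 2.0 kb run in the Enh13 window. A testis region of 3.0 kb at chr11:112206401-112209400, from 437.1 to 434.1 kb upstream, stood alone, with no raised bin of either gonad for 105 kb on its far side and 208 kb on its near side. The ovary was in state 3 at all bins of the 5 testis regions from 598.5 to 434.1 kb upstream, the one with the state 1 segment included.

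Downstream of the Sox9 start, in 156 kb of the 1.7 Mb, lay 9 of the 29 testis regions, and 20 lay upstream. The downstream ones included 3.6 kb at chr11:112648801-112652400, from 5.3 to 8.9 kb after the start, and 3.6 kb at chr11:112669001-112672600, from 25.5 to 29.1 kb after it. The longest testis region of the interval, 3.8 kb at chr11:112709401-112713200, lay from 65.9 to 69.7 kb after the start. By the definition of this class, the ovary had no bin in state 1 or 2 in any of them.

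The ovary regions were fewer and mostly short. The longest was 3.2 kb at chr11:112575401-112578600, from 68.1 to 64.9 kb upstream of Sox9, and the testis was in state 3 there. A testis region of 1.4 kb lay just beyond it, from 71.5 to 70.1 kb upstream, so that here the gonads were raised at neighbouring and not at the same positions. The next ovary regions were 1.4 kb at chr11:111934001-111935400, 1.2 kb at chr11:111495401-111496600 and 1.2 kb at chr11:111842201-111843400. The other 6 were 800 bp or shorter.

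The 9 shared regions lay on both sides of Sox9, and the gonads often covered different parts of them. The farthest spanned 8.0 kb at chr11:111390601-111398600, 1252.9 to 1244.9 kb upstream, with 7.0 kb raised in the testis, 3.4 kb in the ovary and 2.4 kb in both. A second far region, of 3.0 kb, lay 939.5 to 936.5 kb upstream. Then 3 shared regions lay between 225.7 and 157.5 kb upstream. The largest of these spanned 6.2 kb at chr11:112479801-112486000, all of it raised in the testis and 4.0 kb of it in the ovary. After the region over the Sox9 start came 3 more, at 19.9, 35.1 and 84.9 kb downstream. The region at 35.1 kb, chr11:112678601-112682400, was the shared region with the largest excess of the ovary, with 3.8 kb raised against 2.0 kb in the testis.

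By distance within the interval, the share of states 1 and 2 was highest in the zones next to the Sox9 start in both gonads. The ratio between the gonads was highest from 1 Mb to 500 kb upstream. In the 400 kb after the interval the share was higher still, at 24.2% in the ovary and 38% in the testis. Beyond 1 Mb upstream, states 1 and 2 covered 1.1% in the ovary and 2.8% in the testis. From 1 Mb to 500 kb upstream they covered 0.84% in the ovary and 4.44% in the testis, 5.29 times as many bins, though on only 21 ovary bins against 111. From 500 to 100 kb upstream the shares were 2.1% and 4.1%, and within 100 kb upstream 8.6% and 16.2%. After the start they were 8.56% and 19.9%. The testis exceeded the ovary in each of the 5 zones, by 1.88 to 5.29 times.

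**Figure D4:**
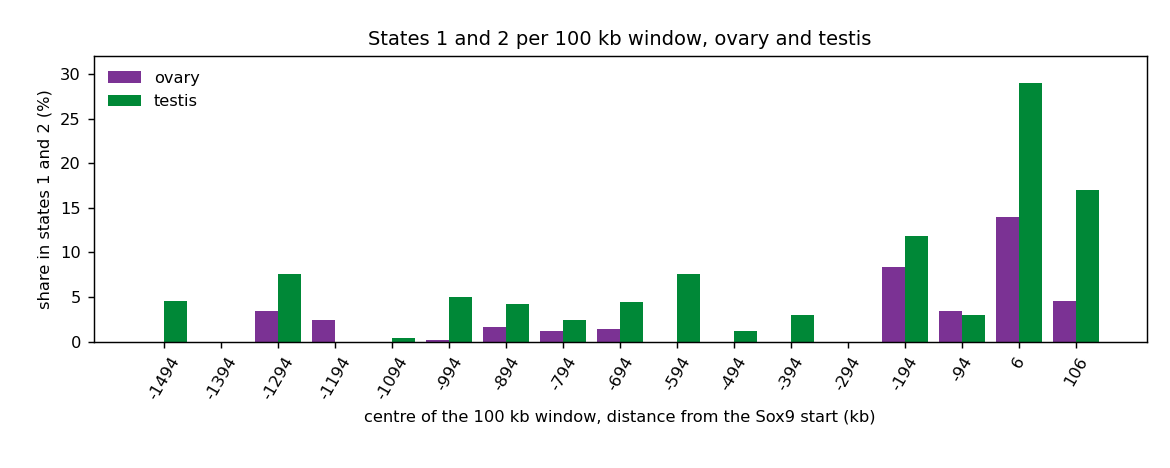
Share of each 100 kb window in states 1 and 2, for the ovary and the testis, against the centre of the window as distance from the Sox9 start in kb. The testis was higher in 13 of 17 windows, or 76.5%, against 55.4% of autosomal windows, and the highest value was 29% in the testis in the window that holds the Sox9 start.

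In windows of 100 kb the share of states 1 and 2 was higher in the testis in 13, higher in the ovary in 2 and equal in 2 of 17, or 76.5% higher in the testis. On the autosomes 55.4% of windows were higher in the testis and 36.1% in the ovary. The window from 112600001 to 112700000, which holds Sox9, had 14% in the ovary and 29% in the testis. The last window, from 112700001 to 112800000, had 4.6% and 17%. The window from 112000001 to 112100000, which holds the group near 600 kb upstream, had no such bin in the ovary and 7.6% in the testis. These 3 windows were higher in the testis by at least 5 percentage points, or 3 of 17, against 28.1% of autosomal windows. No window was higher in the ovary by that margin, against 11% of autosomal windows. The largest excess of the ovary was 2.4% against 0% in the testis, from 111400001 to 111500000. Counting states 1 to 3 the testis was higher in 15 windows, or 88.2%, and the ovary in 2, against 45.7% and 32% of autosomal windows. With windows of 50 kb the testis was higher in 24 of 34, or 70.6%, but no autosomal share for windows of that size is given here. The largest difference over 100 kb, 91.6% in the testis against 76.2% in the ovary, lay from 111200001 to 111300000. That window held no bin in state 1 or 2 in either gonad, so its difference was between state 3 and the lowest states.

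Raised chromatin was thus sparse, with long stretches free of it in both gonads. The longest stretch without states 1 or 2 in either gonad was 214 kb, from 1472.9 to 1259.3 kb upstream. The second was 208 kb, from 434.1 to 225.7 kb upstream, and the third 131 kb, from 932.7 to 801.3 kb upstream.

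States 4 and 5 formed 77 regions along the interval, of which 43 were in the ovary only, 20 in the testis only and 14 in both. These were 55.8%, 26% and 18.2% of the regions, against 31.1%, 23.1% and 45.8% on the autosomes. By bins, 3.91% of the interval was in these states in the ovary only (background 2.03%) and 1.65% in the testis only (background 1.64%). Both gonads shared 172 low bins, which was 34.1% of those of the ovary and 55.1% of those of the testis. On the autosomes 83.1% and 85.9% were shared, long state 5 segments such as the start of chromosome 1 included. The ovary excess was 1.62 times here, against 1.03 times on the autosomes. The excess of 2.26 percentage points was exceeded by 36 of 1385 stretches of the same length. The difference in bins was largest far from Sox9, in the longest zone. Beyond 1 Mb upstream, over 543 kb, 243 ovary bins (8.94%) and 137 testis bins (5.04%) were in these states. As a ratio it was not largest there: within 100 kb upstream 12 ovary bins and 5 testis bins were low, and after the start 14 and 0. At 111367401 to 111374600 the ovary was low over 7.2 kb and the testis over 2.4 kb of the same stretch. At 111243601 to 111249600 the ovary was low over 6.0 kb and the testis over none of it. Other low regions were common to both gonads, such as 111313801 to 111321200, with 5.4 kb in the ovary and 7.4 kb in the testis, and 111872201 to 111878400, with 6.0 kb and 5.8 kb.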

How the data were processed

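The authors deposited 1 segmentation per mouse gonad, and the state number it gives each segment is a category with no unit. The track lines of the deposited files name EpiCSeg, which fits a hidden Markov model to binned read counts. The sources used here do not say whether both gonads shared 1 model or how many libraries entered each. STAR 2.6.1d and the build mm9 appear in the submitters' processing notes, without a step. Per the labels' protocols, 50000 cells entered each tagmentation.

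Segments were written to 200 bp bins and both gonads were compared bin by bin (Python 3.11.15, numpy 2.4.6). Wilson intervals at 95% came from scipy 1.17.1. The functions were tested on simulated data. With 1 file a gonad, no test between gonads was possible. Autosomes served as background. Named were regions from among the longest of each class, all runs at least 2 states apart, the known elements, and some regions beside these. Not every long region was named, such as a testis region of 3.0 kb from 139.9 to 142.9 kb downstream. Since no region was in state 1 in both gonads, the choice was made on states 1 and 2. The interval, lists and known elements were chosen with earlier results of these data known. The distance zones, low states, stretches, margin of 5 points, chromosome X and the autosomal background were added after the states were seen.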

Additional observations from a re-analysis of the deposited data

How the results depend on the processing

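Of 37 values recomputed under an alternative, 22 stayed within the limits set and 15 moved. Some of the 22 could not move, because the ovary had no state 1 bin. These were its state 1 share and regions with the interval cut at the Sox9 start, and its regions of at least 400 bp. So were the state 1 regions shared between gonads, under another overlap rule or with a gap allowed. The limits allowed large shifts too: windows higher in the testis went from 88.2% to 70.6% with 50 kb windows and counted as unmoved. The count of 22 is therefore no measure of stability. Counting states 1 and 2 together as accessible raised the share from 0% to 2.39% in the ovary and from 0.0706% to 5.95% in the testis. It raised the number of accessible regions to 20 in the ovary and 39 in the testis, of which 10 and 9 overlapped the other gonad. With bins of 1000 bp, each given its most accessible state, 89.5% of bins were in the same state and 0.294% were at least 2 states apart, and 5.76% were raised in the testis only and 1.41% in the ovary only. Of the bins of 200 bp, 0% were at least 3 states apart. With the interval cut at the Sox9 start, 89.5% of bins were in the same state, 3.52% were raised in the testis only and 0.752% in the ovary only. Without 20 kb on both sides of the start, 3.89% were raised in the testis only. The alternatives for bins raised in 1 gonad only were chosen after seeing the data. The cause of these moves is their construction: other bins, states or sequence entered. The ratio of testis to ovary bins in states 1 and 2 was 2.57 with the interval cut, 2.46 without the sequence around the start and 2.3 with bins of 1000 bp. No paired analysis was possible because each mouse gonad is 1 segmentation with no replicate number. The depth behind a state is unknown, so no read count can be set beside it, and with 1 file a gonad none could be left out.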

Other observations

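Just outside the interval, states 1 and 2 covered 1.62% of the 173 kb from the Kcnj2 start to the interval in the ovary and 2.9% in the testis. In the 400 kb that follow the interval they covered 24.2% in the ovary and 38% in the testis, with 2 state 1 segments in the ovary and 3 in the testis. The last 100 kb of the interval held 4.6% in the ovary and 17% in the testis, and the 100 kb before them 14% and 29%. The 400 kb were taken as 1 average, so these values do not place a change at the end of the interval.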
